A study of Mus musculus with 6 samples.

Results

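The hematopoietic growth factor receptors are 9 genes, Kit, Flt3, Csf1r, Csf2ra, Csf2rb, Csf2rb2, Csf3r, Il3ra and Epor, out of 35932 gene rows in the deposited count table. They were chosen by symbol from the annotation, and each matched 1 row. RNA sequencing was done on myeloid leukemic blasts taken from mouse bone marrow, and all 6 libraries carried the MLL-AF9 fusion, which joins Kmt2a to Mllt3 and drives an acute myeloid leukemia. The 3 resistant libraries came from blasts labelled chemotherapy-resistant, whose treatment was cytarabine (a nucleoside analog) with doxorubicin (an anthracycline). The 3 sensitive libraries came from blasts labelled chemotherapy-sensitive, whose treatment was the vehicle. Resistance and drug exposure therefore cannot be told apart here. The labels give no dose, harvest time, mouse strain or age, nor how MLL-AF9 was introduced, nor whether replicates came from separate animals, so p-values here gauge variation among the sequenced libraries, some or all of which may be technical.

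Growth factor receptors let blood cell precursors sense the cytokines that keep them alive, make them divide and steer their lineage. Kit, Flt3 and Csf1r are class III receptor tyrosine kinases, single chains that pair when their ligand (stem cell factor, FLT3 ligand, or CSF-1 and IL-34) binds and then phosphorylate themselves. The others are class I cytokine receptor chains, which have no kinase of their own and signal through bound JAK kinases to STAT5 and the ERK pathway. Csf2ra and Il3ra encode the ligand-binding alpha chains for GM-CSF and IL-3, Csf2rb the beta chain shared by GM-CSF, IL-3 and IL-5, and Csf2rb2 a second mouse beta chain that serves IL-3 alone. Csf3r encodes the G-CSF receptor of the neutrophil lineage and Epor the erythropoietin receptor of the red cell lineage.

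Of the 9 receptor genes, 4 fell in resistant blasts, 0 rose, 4 did not pass the test, and Epor was too low to be tested. The genes that fell were Csf1r, Flt3, Kit and Csf2rb (edgeR quasi-likelihood test, Benjamini-Hochberg adjustment over 13414 genes, threshold 0.05). All 8 fitted fold changes were below 0 in edgeR, and also with DESeq2 and limma-voom. The count of higher receptors was therefore 0 at any threshold in these fits, also at an unadjusted p under 0.05. All 3 class III kinase receptors were among the 4 that fell. Of the 6 cytokine receptor chains 1 fell, 4 did not pass and Epor was not tested. This split rests on the threshold, as Il3ra (-0.28, edgeR adjusted p = 0.059) and Csf3r (-0.21, 0.0592) missed it narrowly. Over all tested genes 39.2% passed in either direction, 20.8% as lower and 18.5% as higher. The groups did not overlap for 5 of the 8 tested receptors, against 52.4% of all tested genes. The median log2 fold change (resistant over sensitive, as throughout) was -0.28 over the 8 tested receptors and -0.01 over all tested genes. The 4 calls were kept under each of the 15 alternative settings.

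Library totals ran from 22206341 to 31856009 counts in resistant and from 25129812 to 30695602 counts in sensitive libraries. Levels below are TMM-normalised CPM, counts relative to the scaled library total, given for replicates 1, 2 and 3 in that order. A floor of 3 counts in a library was 0.0945 to 0.137 CPM, and it covers counting error only. The blast and myeloid markers were present in every library, with the 12 genes summing to 5335 to 6234 CPM in resistant and 5929 to 6509 CPM in sensitive libraries. Of these 12, 4 rose, 3 fell (Csf1r, which the list holds, among them) and 5 did not pass. Over all tested genes 18.5% rose and 20.8% fell. In bulk RNA, fewer cells of a type and less RNA per cell cannot be told apart, and this holds for each receptor below.

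**Figure D1:**
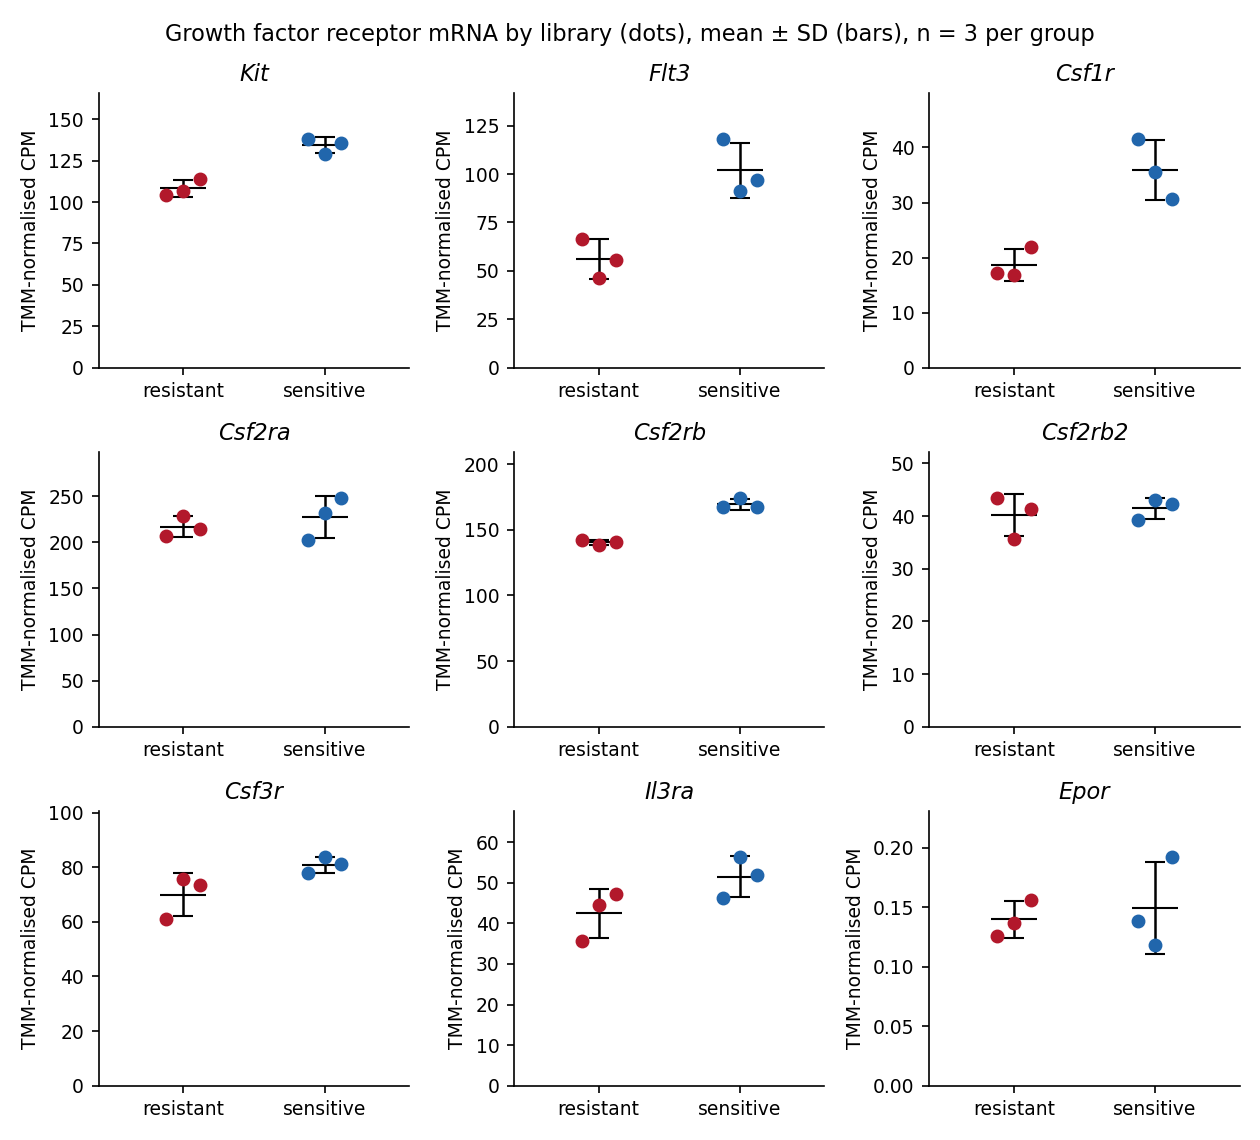
TMM-normalised CPM of the 9 receptor genes, with 1 dot per library, bars for mean ± SD, resistant libraries on the left of each panel and sensitive ones on the right, and each vertical axis starting at 0. The dots of the groups lie apart for Kit, Flt3, Csf1r, Csf2rb and Csf3r, and overlap for Csf2ra, Csf2rb2, Il3ra and Epor.

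The start regions of Flt3 and Kit are shown. Of the other called receptors, Csf2rb had no entry in the promoter table used, and Csf1r was left out of the search and is not reported here. Flt3 and Kit both lie on chromosome 5. The sequences are those of RefSeq on GRCm38.p6, from 250 bases before to 50 bases after the annotated start, and 7 of the 9 receptor genes were searched. Kit had 2 starts listed, of which only the first listed was searched. Capitals mark matches, on either strand, to 5 short words: GAGGAA, a core of sites for PU.1 (the factor encoded by Spi1), TTGCNNAA for C/EBP factors, TGTGGT for RUNX factors, AGATAA for factors of the Gata1 and Gata2 family, and CNGTTA for MYB. No matches overlapped.
Flt3 (GRCm38.p6, chr5:147400440-147400739, minus strand): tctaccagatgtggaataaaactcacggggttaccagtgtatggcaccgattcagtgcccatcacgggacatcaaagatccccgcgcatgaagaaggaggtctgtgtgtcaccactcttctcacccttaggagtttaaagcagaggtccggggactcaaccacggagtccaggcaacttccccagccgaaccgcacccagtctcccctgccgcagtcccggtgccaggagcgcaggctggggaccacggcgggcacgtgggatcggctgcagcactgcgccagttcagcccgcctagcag
Kit (GRCm38.p6, chr5:75574737-75575036, plus strand): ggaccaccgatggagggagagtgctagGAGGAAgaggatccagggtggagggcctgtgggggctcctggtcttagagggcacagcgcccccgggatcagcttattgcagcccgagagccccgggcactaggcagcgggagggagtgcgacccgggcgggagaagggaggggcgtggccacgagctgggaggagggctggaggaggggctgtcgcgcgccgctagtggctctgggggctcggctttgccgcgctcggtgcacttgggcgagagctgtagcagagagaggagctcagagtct

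The window of Flt3 held none of the 5 words, and that of Kit held 1, GAGGAA. That word was present in 28.3% of 32851 promoters of this length, TTGCNNAA in 10.8%, TGTGGT in 16.8%, AGATAA in 11.2% and CNGTTA in 23.3%. A match describes letters only, and the absence of a match says nothing about binding.

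Flt3, the receptor of early progenitors and a frequent target of activating mutations in human leukemia, fell strongly in resistant blasts. It was at 66.4, 46.2 and 55.7 CPM in resistant libraries, against 118, 91 and 96.8 CPM in sensitive libraries. Every resistant library lay below every sensitive one, with resistant library 2 the lowest and sensitive library 1 the highest. The log2 fold change was -0.86 ± 0.13 (SE), with an adjusted p = 4.88e-04 in edgeR. Resistant blasts thus held 55.1% of the sensitive level. Flt3 also varied more between replicates than most of the other receptors, with a coefficient of variation of 18% in resistant and 13.9% in sensitive libraries.

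Csf1r, the CSF-1 receptor of monocytes and macrophages, had the largest fall of the 8 tested receptors. Its levels were 17.2, 16.8 and 21.9 CPM in resistant libraries and 41.5, 35.5 and 30.7 CPM in sensitive libraries. The groups did not overlap, and the lowest sensitive library stood clearly above the highest resistant one. The log2 fold change was -0.94 ± 0.13 (SE, edgeR adjusted p = 2.94e-04), leaving 51.9% of the sensitive level.

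Kit, the stem cell factor receptor of stem cells, progenitors and mast cells, fell by a smaller amount. It was at 104, 107 and 114 CPM in resistant libraries, against 138, 129 and 136 CPM in sensitive libraries. The groups stood apart and both were tight, with coefficients of variation of 4.6% in resistant and 3.77% in sensitive libraries. The log2 fold change was -0.31 ± 0.06 (SE, edgeR adjusted p = 0.00198).

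Outside the 9 genes, the class III family has Pdgfra and Pdgfrb, receptors for platelet-derived growth factors that are best known from mesenchymal cells. Pdgfrb fell to 34.1 ± 3.13 CPM in resistant blasts, against 46.5 ± 5.62 CPM in sensitive blasts (SD, n = 3 per group; log2 fold change -0.45 ± 0.10 SE, edgeR adjusted p = 0.00513). Pdgfra had 0 to 3 counts in any library and was not tested. The other stromal and endothelial markers on the list were low, Col1a1 with 8 to 15 counts and Cdh5 with 0 to 4 counts per library, and Emcn was at 0 in all 6, while the 8 genes of that list summed to 32.8 to 38.2 CPM in resistant and 42.2 to 53.2 CPM in sensitive libraries, nearly all of it Pdgfrb.

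Markers of the mature cells that carry these receptors moved in the same libraries. Counts of called markers, here and in the marker lists below, stand beside the 39.2% of all tested genes that passed. Of 14 tested monocyte and macrophage markers 4 fell and 3 rose, and their sum was 715 to 828 CPM in resistant against 1103 to 1236 CPM in sensitive libraries, with none at 0 throughout. The lower sum rested on Ly6c2, an antigen of inflammatory monocytes, and without it the sums of the other genes overlapped between groups. Ly6c2 averaged 264 ± 21.3 CPM in resistant and 681 ± 60.1 CPM in sensitive libraries. The lysozyme gene Lyz2 averaged 18.1 ± 3.06 CPM in resistant and 68.4 ± 12.4 CPM in sensitive libraries. Vcam1, an adhesion molecule gene of tissue macrophages, rose to 240 ± 26.5 CPM in resistant libraries, against 161 ± 30.9 CPM in sensitive libraries. The other 2 that rose were the Fc receptor gene Fcgr1 (log2 fold change 2.84 ± 0.30, edgeR adjusted p = 5.43e-05), at 43, 36 and 42 counts in resistant and 6 counts in each sensitive library, and the endotoxin co-receptor gene Cd14 (0.84 ± 0.23, adjusted p = 0.0138, and 0.0513 without sensitive library 1); both were named after their values were seen. Of 4 tested dendritic cell markers, which include Flt3 itself, 2 fell and 1, Zbtb46, rose, a call lost under 10 of its 14 alternatives (adjusted p = 0.0486, and up to 0.293). The list summed to 49.2 to 69.7 CPM in resistant and 105 to 136 CPM in sensitive libraries, most of it Flt3 itself, with Cd209a at 0 in all 6. Without Flt3 the other 7 genes summed to 3 to 3.39 CPM in resistant and 13.9 to 18 CPM in sensitive libraries. Nearly all of that difference was the integrin gene Itgax. It fell to 1.04 ± 0.169 CPM in resistant libraries, against 13.1 ± 2.3 CPM in sensitive libraries. Of 4 tested mast cell and basophil markers 3 fell and 1 rose, with Tpsb2 and Tpsab1 at 0 in all 6 libraries. Their sum of 741 to 975 CPM in resistant and 415 to 439 CPM in sensitive libraries was mostly Hdc, the histamine-forming enzyme gene, which rose, while the mast cell protease gene Cpa3 fell to 6.88 ± 0.843 CPM in resistant libraries, against 30.6 ± 8.63 CPM in sensitive libraries. The part of these cell types in the falls of Csf1r, Flt3 and Kit was not tested.

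In the beta chain family, Csf2rb fell while its near copy Csf2rb2 did not pass the test. Both lie on chromosome 15 and their coding sequences, of 2691 and 2637 bases, were identical at 95.2% of 2631 aligned bases, with a longest shared run of 242 bases (GENCODE M21 transcripts). Of the windows of 50 bases in the longest Csf2rb transcript 18.4% also occurred in Csf2rb2, and of those of 100 bases 6.96%. How the counting treated reads from such stretches is not given in the sources used here, so the split between the genes is uncertain. The stretch of 120 coding bases with the most differences, 22, shows where reads can tell the genes apart. It is printed with capitals at the bases that differ.
Csf2rb (coding bases 309 to 428, 5′ to 3′): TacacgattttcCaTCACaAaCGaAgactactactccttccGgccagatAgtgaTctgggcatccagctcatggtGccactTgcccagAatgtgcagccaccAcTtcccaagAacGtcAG
Csf2rb2 (coding bases 312 to 431, 5′ to 3′): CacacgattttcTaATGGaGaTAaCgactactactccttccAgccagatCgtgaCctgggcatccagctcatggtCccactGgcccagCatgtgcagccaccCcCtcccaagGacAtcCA

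Csf2rb was at 142, 138 and 141 CPM in resistant libraries, against 167, 174 and 167 CPM in sensitive libraries. The groups did not overlap, and Csf2rb had the tightest replicates of the 9 genes in both groups, with coefficients of variation of 1.34% in resistant and 2.34% in sensitive libraries. Its log2 fold change was -0.27 ± 0.05 (SE, edgeR adjusted p = 0.00178). Csf2rb2 was at 43.4, 35.7 and 41.4 CPM in resistant libraries and 39.2, 43 and 42.3 CPM in sensitive libraries. Its groups overlapped and its log2 fold change was -0.04 ± 0.08 (SE, edgeR adjusted p = 0.706). Without resistant library 2 that value was 0.04. With the counts of both genes summed into 1 row, the log2 fold change was -0.22 ± 0.05 and passed the test (edgeR adjusted p = 0.00672). Csf2rb2 took 23.4%, 20.5% and 22.7% of the summed beta chain counts in resistant libraries and 19%, 19.8% and 20.2% in sensitive libraries, so each resistant library had the higher share.

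The ligand-binding alpha chains did not pass. Csf2ra, the GM-CSF receptor alpha chain, was at 207, 229 and 215 CPM in resistant libraries and 203, 232 and 248 CPM in sensitive libraries. The groups overlapped, with the lowest value in sensitive library 1 (log2 fold change -0.07 ± 0.07 SE, edgeR adjusted p = 0.488). Il3ra, the IL-3 receptor alpha chain known in human leukemia as CD123, was at 35.7, 44.5 and 47.2 CPM in resistant libraries and 46.3, 56.3 and 52 CPM in sensitive libraries. Resistant library 1 was the lowest, and resistant library 3 lay above sensitive library 1. The log2 fold change of Il3ra was -0.28 ± 0.11 (SE) with an edgeR adjusted p = 0.059, just over the threshold, and it passed under 6 of 15 alternatives, among them without resistant library 3 (0.0363) and without sensitive library 1 (0.0461).

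Markers of eosinophils, a lineage that uses the beta chain with the IL-5 receptor, had a higher sum in each resistant library. Of 5 tested eosinophil markers 2 rose and 3 did not pass, and the list summed to 412 to 576 CPM in resistant against 132 to 186 CPM in sensitive libraries. The granule genes Prg2 and Prg3 made up most of that sum, while the defining gene Epx had 9 to 15 counts and Ccr3 1 or 2 counts per library. Il5ra, the IL-5 receptor alpha chain, was at a log2 fold change of 0.63 ± 0.29 (SE, edgeR adjusted p = 0.111). The part of eosinophil precursors in the beta chain values was not tested.

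Csf3r, the G-CSF receptor gene, was at 60.9, 75.6 and 73.4 CPM in resistant libraries and 77.9, 83.7 and 81.2 CPM in sensitive libraries. Each resistant library lay below each sensitive one, but the gap between resistant library 2 and sensitive library 1 was small. The log2 fold change of -0.21 ± 0.08 (SE) did not pass (edgeR adjusted p = 0.0592). It passed under 4 of 15 alternatives, among them without resistant library 2 (0.0335). In the same libraries the markers of mature neutrophils, the cells in which Csf3r is best known, fell in 11 of 12 tested genes. Their sum was 36.2 to 56.5 CPM in resistant and 219 to 264 CPM in sensitive libraries, with none at 0 throughout. Padi4, a histone-citrullinating enzyme gene of neutrophils, averaged 2.74 ± 0.513 CPM in resistant and 78.6 ± 9.18 CPM in sensitive libraries. The median log2 fold change of these markers was -2.05, and their part in the Csf3r value was not tested.

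Epor was close to the floor in both groups, with 4, 3 and 4 counts in resistant libraries and 4, 3 and 6 counts in sensitive libraries. These are levels of 0.126 to 0.156 CPM in resistant and 0.118 to 0.192 CPM in sensitive libraries, and a difference was not detectable at this depth. The globin genes, which mark red cells, summed to 0.126, 1.32 and 0.507 CPM in resistant libraries and 42.2, 73.2 and 56.1 CPM in sensitive libraries. Of 12 tested erythroid markers 8 fell and 4 did not pass, with a list sum of 116 to 138 CPM in resistant and 198 to 214 CPM in sensitive libraries that was mostly the transferrin receptor gene Tfrc; none was at 0 in every library. Epor counts thus did not separate the groups that the globins separated. Of the erythroid markers that did not pass, the factor genes Gata1 (1.02 ± 0.37 SE, edgeR adjusted p = 0.0502) and Klf1 (0.55 ± 0.28, 0.148) were higher in each resistant library. Both had few counts, 15 to 55 and 17 to 27 per library. Tfrc (-0.21 ± 0.10, 0.126) and Ermap (-0.47 ± 0.27, 0.193) were below 0 and their groups overlapped. The start region of Epor, on chromosome 9, is shown because it held an AGATAA match, and that of Il3ra, on chromosome 14, because it was the only one of the 7 with a TTGCNNAA match; capitals mark matches as above.
Epor (GRCm38.p6, chr9:21963527-21963826, minus strand): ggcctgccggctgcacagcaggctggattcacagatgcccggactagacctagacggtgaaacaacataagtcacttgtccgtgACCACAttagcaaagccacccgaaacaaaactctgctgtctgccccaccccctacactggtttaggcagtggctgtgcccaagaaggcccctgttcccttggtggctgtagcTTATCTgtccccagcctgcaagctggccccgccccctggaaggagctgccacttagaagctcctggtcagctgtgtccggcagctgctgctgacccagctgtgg
Il3ra (GRCm38.p6, chr14:14346245-14346544, plus strand): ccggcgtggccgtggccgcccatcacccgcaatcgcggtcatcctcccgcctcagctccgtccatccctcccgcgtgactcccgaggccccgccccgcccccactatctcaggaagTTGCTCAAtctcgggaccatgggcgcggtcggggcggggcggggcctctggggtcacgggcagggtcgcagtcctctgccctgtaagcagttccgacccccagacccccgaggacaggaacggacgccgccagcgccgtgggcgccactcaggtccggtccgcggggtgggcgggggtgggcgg

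The TTGCNNAA match of Il3ra lay 134 bases before the start, and the AGATAA match of Epor 54 bases before it, where the printed strand reads TTATCT. Epor also held a TGTGGT match. Of the other windows, Csf2ra and Csf2rb2 held GAGGAA at 2 places each and Csf3r at 1.

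Levels were compared between receptors per kilobase of the longest coding transcript (CPM per kb). Csf2ra stood highest, at 117 ± 6.01 CPM per kb in resistant and 123 ± 12.3 CPM per kb in sensitive blasts (SD, n = 3 per group). Csf2rb came next, at 28.7 ± 0.383 CPM per kb in resistant and 34.6 ± 0.809 CPM per kb in sensitive blasts. In resistant blasts Kit (20.7 ± 0.953), Csf3r (20.1 ± 2.28), Il3ra (18.3 ± 2.59) and Flt3 (15.3 ± 2.76 CPM per kb) followed, each overlapping the next in that order. In sensitive blasts the order was Flt3 (27.9 ± 3.86), Kit (25.6 ± 0.966), Csf3r (23.3 ± 0.831) and Il3ra (22.3 ± 2.16 CPM per kb), where Flt3 overlapped Kit, Kit and Csf3r lay apart, and Csf3r overlapped Il3ra. Flt3 was therefore lowest of these 4 in resistant and highest in sensitive blasts. Csf2rb2 (8.47 ± 0.846 in resistant and 8.75 ± 0.429 CPM per kb in sensitive blasts) and Csf1r (3.96 ± 0.6 in resistant and 7.63 ± 1.15 CPM per kb in sensitive blasts) were lower, and overlapped each other in sensitive blasts only. With lengths from the union of all exons, Csf2ra was highest and Csf1r lowest of the 8 in both groups, but Csf2rb and Csf3r were level in resistant blasts (19.3 and 19.4 CPM per kb) and Flt3 came after Il3ra in sensitive blasts (16.5 and 17.4 CPM per kb).

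As a share of the summed level per kb of all 9 genes, the 3 kinase receptors made up 18.6%, 15.5% and 17.6% in resistant libraries and 25.7%, 20.7% and 20.9% in sensitive libraries. The sum itself was 225 to 237 CPM per kb in resistant and 262 to 282 CPM per kb in sensitive libraries. Both quantities were lower in each resistant library than in each sensitive one.

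Ratios between chains were set up within each library, where the scaling of libraries cancels. The log2 ratio of Flt3 to Kit counts was -0.65, -1.22 and -1.03 in resistant libraries and -0.23, -0.50 and -0.49 in sensitive libraries, a difference of -0.56. The log2 ratio of Csf3r to Csf1r was 1.82, 2.17 and 1.74 in resistant libraries and 0.91, 1.24 and 1.40 in sensitive libraries, a difference of 0.73. The log2 ratio of Csf2rb2 to Csf2rb was -1.71, -1.95 and -1.76 in resistant libraries and -2.09, -2.02 and -1.99 in sensitive libraries, a difference of 0.22. These 3 ratios did not overlap between groups, each with an exact two-sided permutation p = 0.1, the smallest that 3 against 3 libraries allow, and 0.167 when adjusted over the 5 pairs. Csf2ra to Csf2rb (difference 0.20, exact permutation p = 0.2, adjusted 0.25) and Il3ra to Csf2rb2 (difference -0.23, exact permutation p = 0.3, adjusted 0.3) overlapped. The difference for Il3ra to Csf2rb2 was -0.06 without resistant library 1 and -0.36 without resistant library 2.

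**Figure D2:**
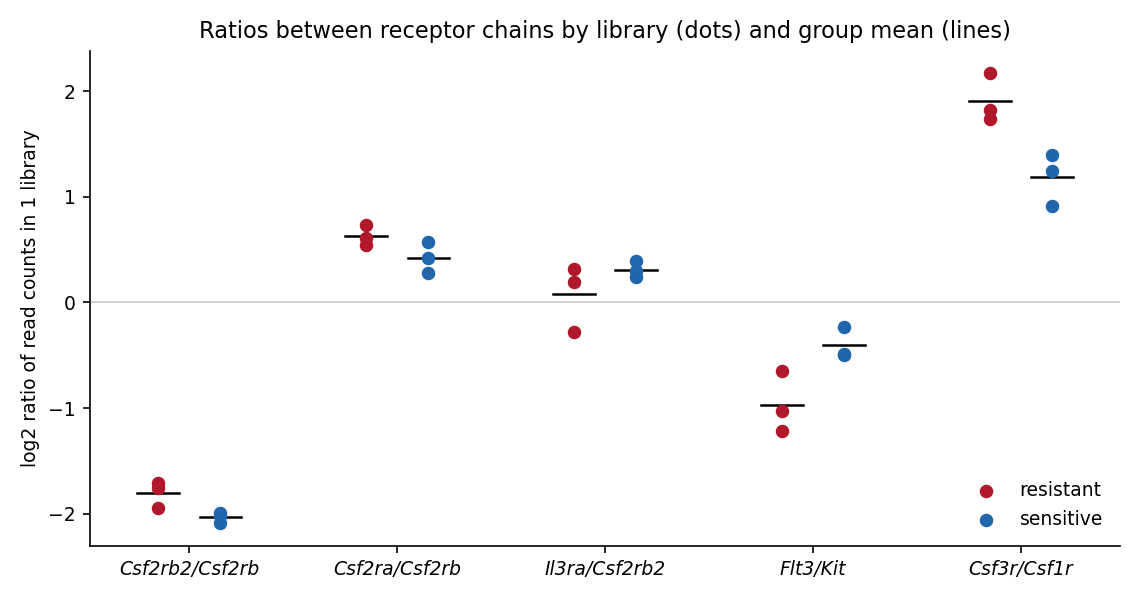
Log2 ratio of the read counts of 2 receptor chains within 1 library, with 1 dot per library, resistant dots on the left and sensitive dots on the right of each pair, and lines at the group means. The dots lie apart for Csf2rb2/Csf2rb, Flt3/Kit and Csf3r/Csf1r and overlap for the other 2 pairs.

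The ligands of these receptors were low or not detected in the blasts' own RNA. Il34, Csf2, Il3 and Epo had 0 counts in all 6 libraries, which allows up to 0.0945 to 0.137 CPM per library. Csf3 had 0, 0 and 1 counts in resistant and 3, 1 and 2 counts in sensitive libraries, and Il5 had 2 counts in sensitive library 1 alone. Kitl, which encodes stem cell factor, had 13, 7 and 4 counts in resistant and 1, 1 and 5 counts in sensitive libraries and was not tested. Csf1, the Csf1r ligand gene, was the only ligand tested. It had 20, 27 and 16 counts in resistant and 71, 37 and 50 counts in sensitive libraries (log2 fold change -1.17 ± 0.33 SE, edgeR adjusted p = 0.0172). This call was lost without resistant library 1, resistant library 3 or sensitive library 1, where its adjusted p reached at most 0.0802. Flt3l was not analysed here, as its symbol matched no row.

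Among the other class I cytokine receptor chains the changes went both ways. Of 23 listed genes 14 were tested, of which 2 rose, 4 fell and 8 did not pass, with a median log2 fold change of -0.07. These 6 calls stand beside the 39.2% of all tested genes that passed in either direction. Il2rg, the gamma chain shared by IL-2, IL-4, IL-7 and related receptors, averaged 15.9 ± 1.66 CPM in resistant and 30.7 ± 1.68 CPM in sensitive blasts (log2 fold change -0.95 ± 0.09, edgeR adjusted p = 3.25e-05). Il21r, the IL-21 receptor that pairs with it, averaged 18.3 ± 4.31 CPM in resistant and 38.8 ± 0.687 CPM in sensitive blasts (-1.09 ± 0.13, edgeR adjusted p = 1.29e-04). Il11ra1, the IL-11 receptor alpha chain, rose to 50.5 ± 4.31 CPM in resistant blasts, against 36.9 ± 3.16 CPM in sensitive blasts (0.45 ± 0.09, edgeR adjusted p = 0.00227). Whether the receptor genes above differ from these chains as a group was not tested.

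**Figure D3:**
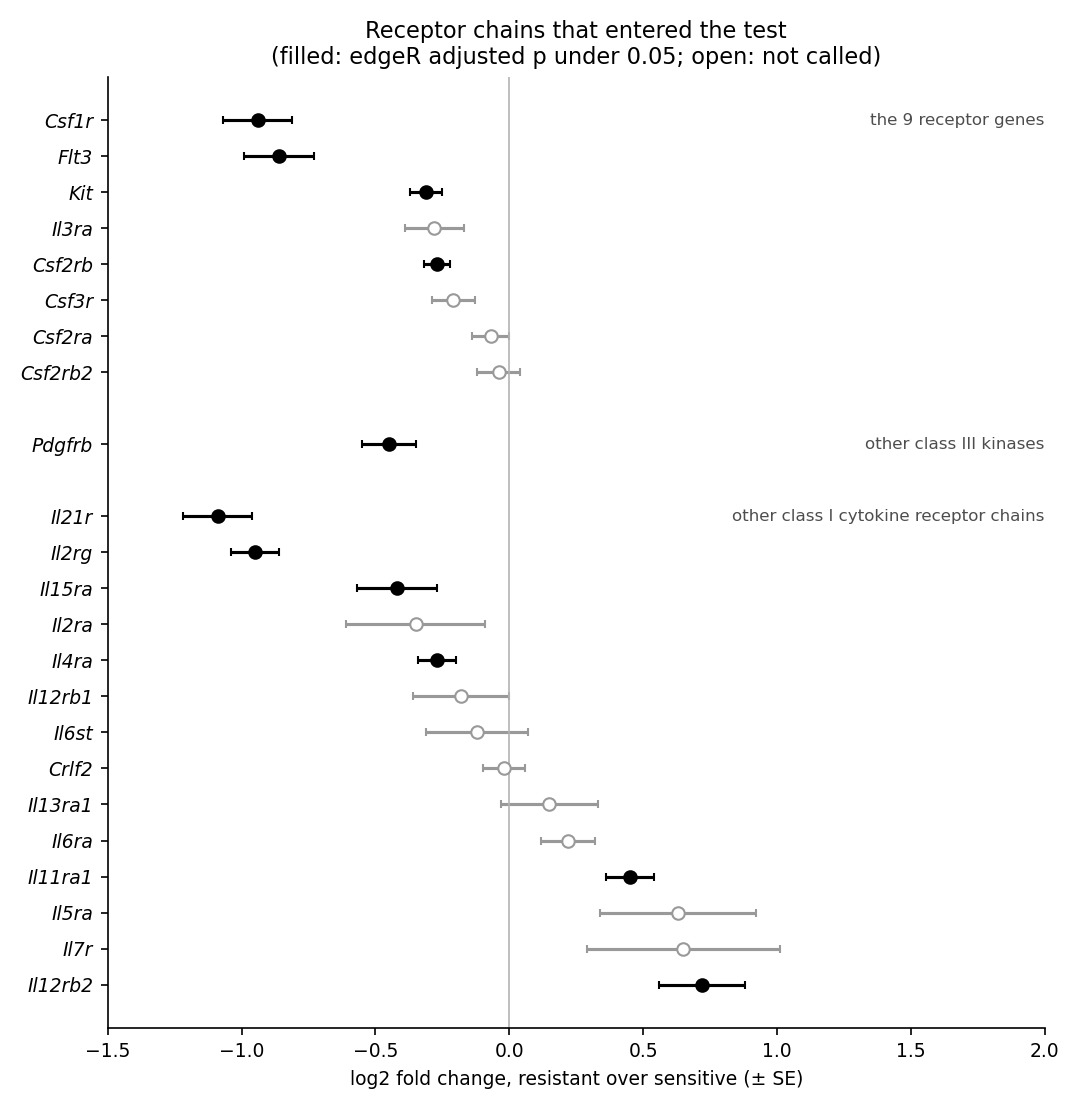
Log2 fold change (resistant over sensitive) ± SE of every tested receptor chain, with the 9 receptor genes at the top (8 tested), Pdgfrb in the middle and the other class I cytokine receptor chains below; filled points passed edgeR's test at an adjusted p of 0.05. The tested class III kinases Csf1r, Flt3, Pdgfrb and Kit are all filled and left of 0. The tested cytokine receptor chains among the 9 receptor genes are also left of 0, with Csf2rb alone filled. The other class I cytokine receptor chains lie on both sides.

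Of 22 tested kinases and adaptors downstream of the receptors 2 rose, 5 fell and 15 did not pass, with a median of -0.10. These 7 calls stand beside the 39.2% of all tested genes that passed, and library totals alone gave 12 calls. Stat5b, a transcription factor that class I receptors activate, fell to 48.4 ± 1.78 CPM in resistant blasts, against 75.6 ± 3.93 CPM in sensitive blasts (-0.64 ± 0.06, edgeR adjusted p = 3.41e-05), whereas its neighbour and paralog Stat5a was at 0.06 ± 0.06 (adjusted p = 0.442). Pik3cg, the PI3-kinase gamma catalytic subunit, averaged 100 ± 9.83 CPM in resistant and 154 ± 8.56 CPM in sensitive blasts (-0.62 ± 0.08, edgeR adjusted p = 1.23e-04). The Src-family kinase gene Lyn averaged 83.7 ± 3.57 CPM in resistant and 103 ± 2.99 CPM in sensitive blasts (-0.30 ± 0.06, edgeR adjusted p = 0.00199). Jak2, the kinase bound by most of the cytokine receptors among the 9, was at 0.02 ± 0.07 (adjusted p = 0.827).

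Negative regulators moved in both directions, with 4 of 18 tested genes higher, 6 lower and 8 not passing, and a median of -0.09. Calls here numbered 10, beside 39.2% of all tested genes. Grb10, an adaptor that binds activated receptor kinases and can restrain them, rose to 16.1 ± 1.18 CPM in resistant blasts, against 4.89 ± 1.18 CPM in sensitive blasts (1.73 ± 0.16, edgeR adjusted p = 2.10e-05). The Src-like adaptor genes Sla (-0.44 ± 0.07) and Sla2 (-1.19 ± 0.21) fell. Cish, a STAT5-induced SOCS family gene that was singled out after its values were seen, had 19, 17 and 15 counts in resistant libraries and 61, 43 and 60 counts in sensitive libraries (-1.55 ± 0.25, edgeR adjusted p = 8.25e-04). Of the 18 targets of STAT5 and ERK signalling that were tested, 1 rose, 3 fell and 14 did not pass, with a median of 0.01. That is 4 calls in 18, again beside 39.2% of all tested genes. Pim1, a STAT5-induced serine/threonine kinase gene, rose to 27.1 ± 2.14 CPM in resistant blasts, against 11 ± 1.45 CPM in sensitive blasts (1.30 ± 0.11, edgeR adjusted p = 1.21e-05). Pim1 and Cish, both known STAT5 targets, thus changed in opposite directions. The ERK phosphatase gene Dusp5 fell (-1.46 ± 0.22), and Dusp6, named after its values were seen, had 5, 4 and 1 counts in resistant and 22, 14 and 19 counts in sensitive libraries (-2.30 ± 0.47, edgeR adjusted p = 0.00322). Ccnd3, a D-type cyclin gene, was at -0.23 ± 0.07 (edgeR adjusted p = 0.0307), a call lost under 5 of 15 alternatives, namely without resistant library 1 or 3 or without any 1 of the 3 sensitive libraries (adjusted p up to 0.121).

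Of the 19 transcription factors listed for their known roles at receptor genes or in the lineages that use them, 1 rose, 7 fell and 11 did not pass, with a median of -0.17. The 8 calls stand beside the 39.2% of all tested genes that passed. Cebpa, a myeloid factor known to act at the Csf3r promoter, was at 22.1, 29.1 and 24.6 CPM in resistant libraries and 97.2, 101 and 89.1 CPM in sensitive libraries. The groups lay far apart (log2 fold change -1.93 ± 0.10, edgeR adjusted p = 3.15e-07), while Csf3r itself had the values given above. Irf8, a factor of the monocyte and dendritic lineages, fell to 38.5 ± 4.1 CPM in resistant blasts, against 82.8 ± 11.7 CPM in sensitive blasts (-1.10 ± 0.11, edgeR adjusted p = 3.02e-05). Hoxa9, which MLL-AF9 keeps active, rose (0.44 ± 0.07). Spi1, whose product PU.1 acts at Csf1r and Csf3r in mice, was at -0.14 ± 0.07 (edgeR adjusted p = 0.124). Gfi1b, named after its values were seen, had 8, 1 and 5 counts in resistant and 40, 28 and 34 counts in sensitive libraries (-2.74 ± 0.42). Gata2 was at 0.09 ± 0.06 (edgeR adjusted p = 0.219). The others that fell, also named after their values were seen, were Lyl1 (-0.47 ± 0.09), Cebpb (-0.45 ± 0.09), Runx1 (-0.27 ± 0.07) and Gfi1 (-0.27 ± 0.10). The groups of Gfi1 overlapped.

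**Figure D4:**
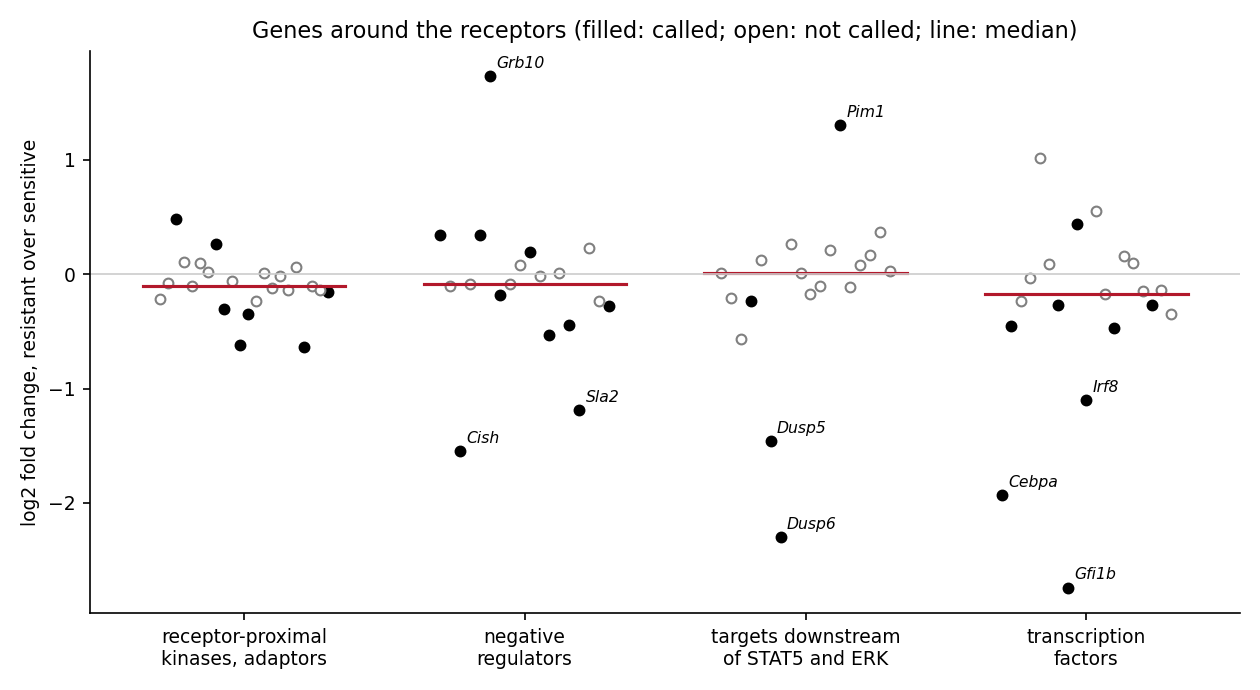
Log2 fold change (resistant over sensitive) of the tested genes of 4 lists around the receptors, with 1 point per gene, filled where edgeR's test was passed, and a line at each list's median. Medians lie between -0.17 and 0.01, and the called genes that changed by more than 1 on the log2 scale are named.

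The genes whose pattern over the 6 libraries was nearest to each receptor were found among 11127 tested genes, by the root mean square difference of log2 CPM centred on each gene's mean. For Flt3 they were Trp53inp1 (0.072) and Klhl41 (0.085), for Csf1r Pld4 (0.070) and Rasa4 (0.094), and for Kit Tob2 (0.018) and Ndfip1 (0.024). For Csf2rb they were Pigyl and Cenpn (0.017 each), for Csf2rb2 Nr2c1 (0.029) and BC028528 (0.033), and for Csf2ra Tom1 (0.024) and Paxx (0.026). For Csf3r they were Hdgfl2 (0.018) and Pgd (0.020), and for Il3ra Pkmyt1 (0.036) and Sirt2 (0.056). The 6 libraries form 2 groups, so this likeness includes the difference between groups.

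The remaining marker lists each owed their sum mainly to a few genes. B cell markers summed to 38.9 to 41.3 CPM in resistant and 39.1 to 42.4 CPM in sensitive libraries, nearly all of it Cd79b, and neither of the 2 tested genes passed. Megakaryocyte and platelet markers summed to 12.7 to 14.5 CPM in resistant and 13.8 to 15.2 CPM in sensitive libraries, with 1 of 4 tested genes higher and 1 lower and with Gp6 at 0 throughout. T and NK cell markers summed to 73.3 to 101 CPM in resistant and 52.2 to 70.7 CPM in sensitive libraries, mostly the granule gene Nkg7, while Cd3e and Cd3g had 0 or 1 counts per library; 1 of 3 tested genes was higher and 1 lower.

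**Figure D5:**
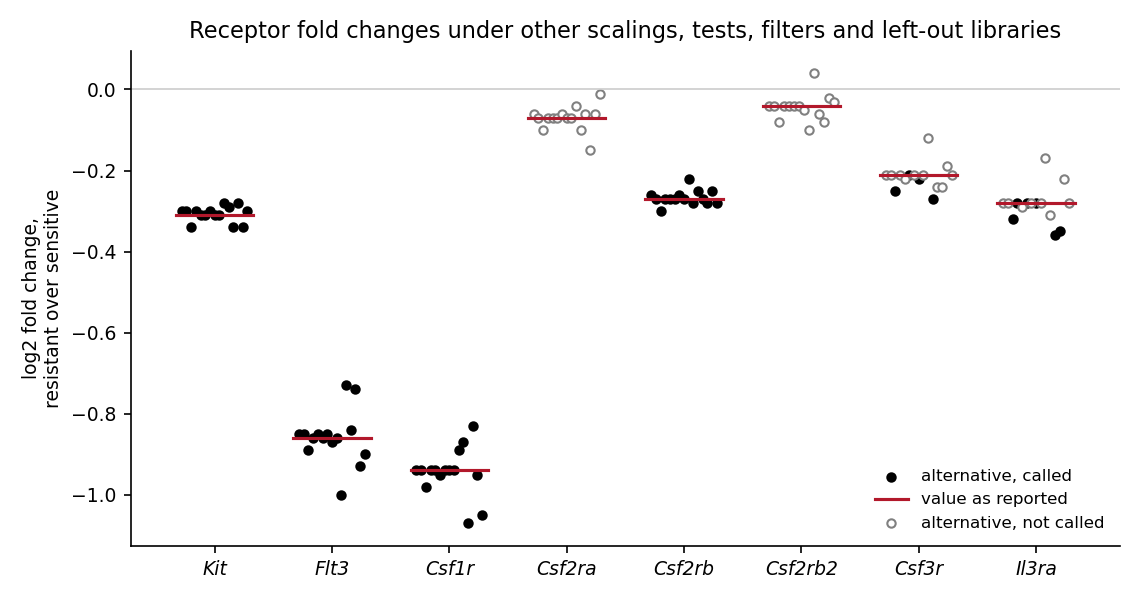
Log2 fold change (resistant over sensitive) of the 8 tested receptors as reported (line) and under each alternative scaling, test, filter, block, summed beta chain or left-out library (dots; filled where called). Csf1r, Flt3, Kit and Csf2rb are filled under all of them, Csf3r under 4 and Il3ra under 6 of 15, and Csf2ra and Csf2rb2 under none.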

How the data were processed

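RNA was sequenced in 6 libraries, 3 per group, mapped to groups by title; all 6 count columns were used and 0 were left over. The authors deposited whole-number counts per Ensembl gene, with no normalisation apparent in the values. TopHat2, RSEM and the build mm9 are named, without versions or roles, per the submitters' processing notes; whether the counts are rounded RSEM estimates, the annotation, the strand setting and the treatment of shared reads are not stated there. Genes with near copies or with an overlapping or antisense neighbour are for this reason uncertain.

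Symbols came from GENCODE M21 (31636 IDs matched), used also for transcript lengths and coding sequence; it is a later build than the authors', and promoter coordinates are those of RefSeq GRCm38.p6. Of 35932 rows, 13569 were at 0 throughout and 13414 passed filterByExpr. TMM scaling gave factors of 0.978 to 1.016. The test was the quasi-likelihood F test of edgeR 4.0.16 under R 4.3.3, with group as the single term, with adjustment over all tested genes; the step was tested on simulated data. The SE was derived from the F statistic. Chain ratios had 0.5 counts added to each gene and an exact permutation test. Within groups, any pair of libraries differed by more than sampling noise (chi-square over its degrees of freedom 3.92 to 13.58, and 37.45 to 63.18 across groups; genes averaging 20 or more counts), so none was counted as a copy.

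Named genes were the 9 receptors, every ligand, up to 3 genes per list with the smallest adjusted p among those called, not overlapping and averaging 50 or more counts, and the 2 nearest patterns per receptor (log2 CPM with a prior count of 2); of these, some marker genes are not described. Genes given as not called for context, and those said to be singled out, lie outside the rule. Members and lists were chosen with earlier results of these data known. Alternatives were other scalings, DESeq2 1.42.0, limma-voom (limma 3.58.1), other filters, the replicate block, summed beta chains and each library left out; exon-union lengths were added after seeing the data.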

Additional observations from a re-analysis of the deposited data

How the results depend on the processing

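The count of lower receptors was 4 to 6 and of higher receptors 0 under every alternative run (4 to 5 with 1 library left out); Csf3r and Il3ra made up the additions. Csf3r passed with library totals alone (adjusted p = 0.0321), with no low-count filter (0.0335), with the replicate block (0.0236) and without resistant library 2. Il3ra passed with library totals alone (0.0384), DESeq2 (0.0458), no low-count filter (0.0156), the replicate block (0.0131) and without resistant library 3 or sensitive library 1. The cause was not tested. With 1 library left out Csf2rb2 ran from -0.10 to 0.04, and it turned positive without resistant library 2. With 1 library left out, higher genes over the whole table numbered 1641 to 2521 (lowest without sensitive library 2) and lower genes 2015 to 2711. Calls among the negative regulators numbered 5 to 9 (5 without sensitive library 2 and 6 without sensitive library 3, against 10), those among ligands 0 to 1, those among receptor-proximal genes 5 to 8, and the last list had 12 calls with library totals alone. Fewer libraries or genes enter some of these fits; otherwise the cause was not tested.

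Whether the replicate numbers pair the libraries across groups is not stated. Over all tested genes, same-numbered libraries had correlations of their deviations of 0.04, -0.01 and -0.09, which cannot exclude pairing for single genes. With the replicate block the SE of Flt3 went from 0.13 to 0.06 and that of Il3ra from 0.11 to 0.07. That of Csf1r stayed at 0.13 and that of Csf2rb2 went from 0.08 to 0.09. With the replicate block 2497 genes were higher and 2824 lower. The differences of the receptor ratios (0.22 for Csf2rb2 to Csf2rb) could not change, as a mean of paired differences equals the difference of group means. The sign-flip permutation p of each ratio was 0.25, the smallest that 3 pairs allow. Levels per kb moved by more than 1 SD with exon-union lengths in 14 of 18 values. Depth limits Epor and the 7 matched ligands other than Csf1; these had too few counts to be tested.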
